A study of Mus musculus with 6 samples.

Results

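The genes described here are 10 transcription factors of the lung epithelium: Nkx2-1, Foxa1, Foxa2, Cebpa, Gata6, Klf5, Sox9, Elf3, Elf5 and Foxp2. They were taken by symbol from the 24421 genes of the count table, and all 10 were among the 16723 genes that passed the expression filter and were tested. Poly(A) RNA was sequenced from lineage-labelled alveolar type 2 (AT2) cells, the surfactant-producing cells of the alveolus, sorted from adult mice. AT2CTRL cells came from 3 mice that were Sftpc-CreERT2/+; R26-tdTomato/+. AT2CAB cells came from 3 mice that were Sftpc-CreERT2/+; R26-tdTomato/R26-caBmpr1a, so that tamoxifen also switched on caBmpr1a, a BMP type I receptor (BMPR1A) made to signal without ligand. In each group 2 mice were 12 weeks old and 1 was 16 weeks old, and both groups carried the tamoxifen-inducible Cre and the tdTomato reporter. Cre was expressed from the Sftpc locus, so the alleles were recombined in Sftpc-expressing cells. The study's organoid cultures left it possible that some labelled cells recombined the reporter but not the caBmpr1a allele.

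These factors form much of the regulatory core of the lung epithelium. NKX2-1 is a homeodomain protein that defines lung epithelial identity and binds the promoters of the surfactant genes. FOXA1 and FOXA2 are forkhead factors that open chromatin in endoderm, GATA6 is a zinc-finger factor of the same lineage, and C/EBPα is a leucine-zipper factor of AT2 maturation and lipid metabolism. SOX9 marks the distal tip progenitors of the embryonic lung and is low in mature AT2 cells. KLF5, ELF3, ELF5 and FOXP2 are further epithelial regulators of the Krüppel-like, ETS and forkhead families.

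BMP signals reach genes through SMAD proteins, which bind short motifs in promoters and enhancers. The bases just before the annotated start of Nkx2-1, Foxa2 and Cebpa are shown because these were the 3 members whose AT2CAB values did not overlap their AT2CTRL values. They are RefSeq sequences on GRCm38.p6, 5′ to 3′ on the gene's strand, for chr12:56536909-56537158 (minus strand) at Nkx2-1, chr2:148046970-148047219 (minus strand) at the outermost of 3 starts of Foxa2, and chr7:35119043-35119292 (plus strand) at Cebpa. Capitals mark matches, on either strand, to a SMAD GC-rich element (GGCGCC), a SMAD box (CAGAC), a forkhead motif (TGTTTNC) or an NKX2-1 motif (CTCAAG).
Nkx2-1: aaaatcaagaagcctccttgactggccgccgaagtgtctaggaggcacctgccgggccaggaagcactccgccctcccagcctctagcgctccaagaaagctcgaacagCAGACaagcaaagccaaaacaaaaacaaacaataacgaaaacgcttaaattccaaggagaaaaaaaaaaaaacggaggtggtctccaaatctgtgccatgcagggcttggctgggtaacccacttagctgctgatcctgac
Foxa2: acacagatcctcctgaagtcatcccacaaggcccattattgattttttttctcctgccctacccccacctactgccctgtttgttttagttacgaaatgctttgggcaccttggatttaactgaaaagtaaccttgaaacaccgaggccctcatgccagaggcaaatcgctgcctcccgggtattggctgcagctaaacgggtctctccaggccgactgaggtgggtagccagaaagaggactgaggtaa
Cebpa: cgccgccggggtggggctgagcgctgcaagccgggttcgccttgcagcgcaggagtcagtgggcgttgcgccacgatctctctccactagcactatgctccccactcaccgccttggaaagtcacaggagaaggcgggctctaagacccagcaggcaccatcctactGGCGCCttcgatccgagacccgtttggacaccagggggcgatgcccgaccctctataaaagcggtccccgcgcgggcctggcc
The Nkx2-1 window held 1 SMAD box, and 42.2% of the 32851 promoter windows of 250 bases in the reference table hold at least 1. The Cebpa window held 1 GC-rich element, found in 9.59% of all windows. None of the 4 motifs was found in this Foxa2 window or in that of the middle start, while the window of the innermost start (chr2:148045465-148045714) held 1 GC-rich element and 1 NKX2-1 motif. The forkhead and NKX2-1 motifs, found in 17.8% and 13.3% of all windows, were found in none of the 3 windows printed. A match describes the letters only and is not evidence of binding. Of the 10 members, 6 had a window in the table. Among members whose groups overlapped, the Elf3 window and 1 of 2 Elf5 windows also held 1 SMAD box each. The Foxa1 window held 1 forkhead motif.

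Library totals ran from 21554249 to 28440227 counts. Levels are given in TPM, which are counts divided by exon length and scaled to the same total in each library. By mean TPM 12451 of 16722 tested genes were higher in AT2CAB, with a median log2 ratio of 0.16. A TPM value that is higher in AT2CAB is to be read beside this general shift. The summed level of 15 AT2 markers was 259738 to 282999 TPM in AT2CTRL and 223730 to 247267 TPM in AT2CAB. By log2 fold change 13 of the 15 were below 0. Of these markers, Lyz2 had means of 56834 TPM in AT2CTRL and 29767 TPM in AT2CAB. Sftpc had 126327 and 128889 TPM, and Sftpb 32223 and 36473 TPM. The 15 markers of alveolar type 1 (AT1) cells summed to 3760 to 4517 TPM in AT2CTRL and 4514 to 5368 TPM in AT2CAB. In the same order, 12 endothelial markers summed to 162 to 388 and 355 to 600 TPM, 12 mesenchymal markers to 86.4 to 117 and 143 to 185 TPM, and 13 immune markers to 74.0 to 87.8 and 75.5 to 192 TPM. This leaves out Lyz1, whose reads may be shared with the AT2 gene Lyz2. Lyz1 alone had 3235 to 4479 TPM in AT2CTRL and 482 to 2250 TPM in AT2CAB. With Lyz1 the 14 immune markers summed to 3309 to 4565 and 558 to 2442 TPM, so the direction of the sum depends on this gene. The 12 airway markers summed to 2393 to 3388 and 2938 to 4465 TPM, with the basal cell keratin Krt5 at 0 in every library. Of the 10 airway markers tested, 5 had log2 fold changes above 0 and 5 below. Tppp3 passed at 1.85 (edgeR adjusted p = 0.016), with means of 198 TPM in AT2CTRL and 804 TPM in AT2CAB, while Cyp2f2 was at -0.53. In bulk RNA, fewer cells of a type and less RNA per cell cannot be told apart. Bmpr1a itself did not pass the test (log2 fold change -0.015, standard error 0.15), while the BMP target Id1 was higher in AT2CAB by a log2 fold change of 3.61 (edgeR adjusted p = 0.017). AT2CTRL replicate 1 and AT2CAB replicate 3 held 3935 and 4494 counts on 4 Y-linked genes and the other 4 libraries held 0, and the first principal component, with 49.3% of the variance, placed these 2 libraries at one end. Each difference in the 10 genes is given with and without them.

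Cebpa and Nkx2-1 were the most abundant of the 10 factors, and Sox9 the least. In AT2CTRL cells the mean level was 885 TPM for Cebpa and 691 TPM for Nkx2-1, the 99.3 and 99.1 percentiles of all tested genes. The other epithelial factors lay close together. Their AT2CTRL means were 132.2 TPM for Elf3, 132.0 for Klf5, 125 for Foxa1, 105 for Gata6, 100.5 for Foxa2 and 82.2 for Elf5. Foxp2, at 8.34 TPM, was near the middle of all tested genes (46.1 percentile), and Sox9, at 0.974 TPM, was at the 16.2 percentile. Between neighbours in this order, the AT2CTRL libraries separated Cebpa from Nkx2-1, Nkx2-1 from Elf3, Foxa2 from Elf5, Elf5 from Foxp2 and Foxp2 from Sox9. The libraries of Elf3, Klf5, Foxa1, Gata6 and Foxa2 overlapped from each gene to the next, so their order is not resolved.

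In AT2CAB cells the order at the top was the other way round, with mean levels of 978 TPM for Nkx2-1 and 824 TPM for Cebpa. The ranges overlapped there, at 837 to 1058 TPM for Nkx2-1 and 778 to 896 TPM for Cebpa. Foxp2 and Sox9 remained the lowest, at 8.18 and 1.79 TPM. The plot of TPM shows these levels in each library.

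**Figure D1:**
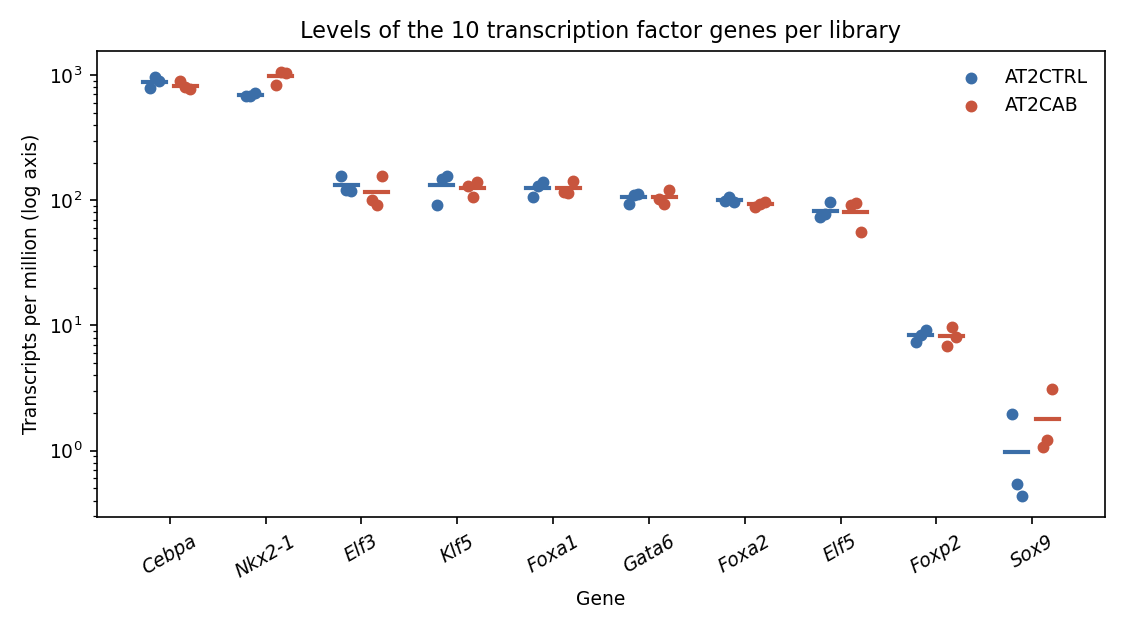
Level of each of the 10 genes in TPM on a log axis, with 1 point per library (blue, AT2CTRL, n = 3; red, AT2CAB, n = 3) and a bar at the group mean. Cebpa and Nkx2-1 lie well above the rest in both groups, 6 genes lie together near 100 TPM, and Foxp2 and Sox9 are the lowest.

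None of the 10 genes differed between AT2CAB and AT2CTRL cells at an adjusted p under 0.05 (edgeR quasi-likelihood test, Benjamini-Hochberg adjustment over 16723 genes), where 0.251% of all tested genes passed. Other fits also called 0 of the 10, where 2.09% of all tested genes passed in DESeq2, 0.167% in limma-voom, 2.53% in edgeR with a covariate for Y-linked reads and 0.693% in edgeR on the 4 libraries without them. At an unadjusted p under 0.05 edgeR passed 2 of them, Nkx2-1 higher and Foxa2 lower, against 9.67% of all tested genes (4.62% higher and 5.05% lower). By sign alone, 8 of the 10 log2 fold changes were below 0, as were 8563 of all 16723 tested genes. The median of the 10 was -0.19, against -0.0096 over all tested genes. With library size as the only scaling the median of all genes moved up to 0.12 and that of the 10 to -0.060. The same 8 were then below 0, against 5192 of 16723 tested genes. By mean TPM 7 were lower, since Gata6 stood at 105.7 TPM in AT2CAB against 105.3 in AT2CTRL. Of all genes, 4271 of 16722 were lower by mean TPM. The 10 differences with their intervals are plotted together.

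**Figure D2:**
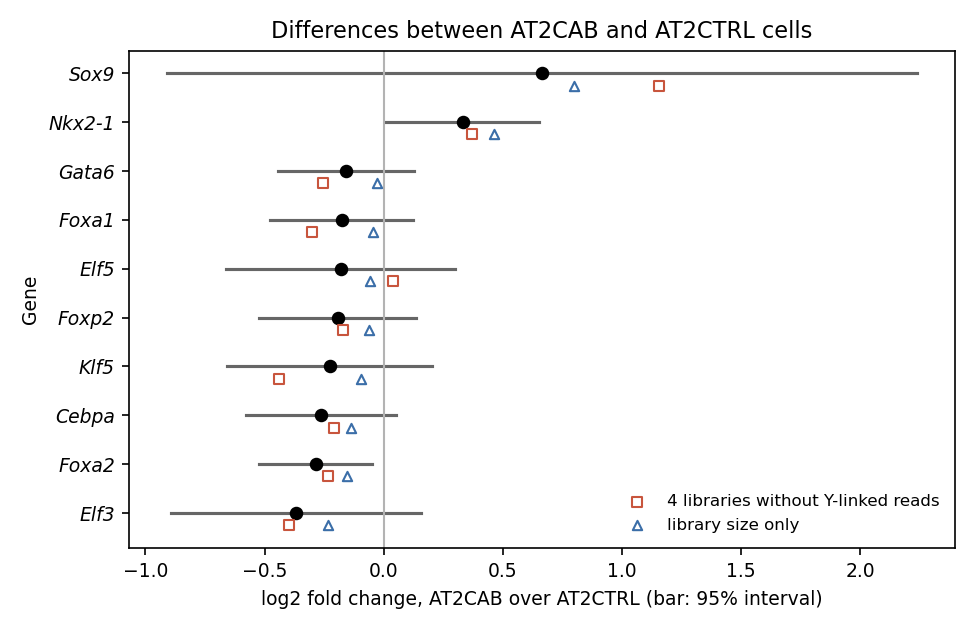
log2 fold change of AT2CAB over AT2CTRL for each gene (black point) with its 95% interval from edgeR (bar, not adjusted for the number of genes), beside the value from the 4 libraries without Y-linked reads (red square) and with library size as the only scaling (blue triangle). The intervals of Nkx2-1 and Foxa2 alone leave out 0, and that of Sox9 is the widest, from -0.91 to 2.24.

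Nkx2-1 was the 1 member whose AT2CAB libraries all lay above the AT2CTRL libraries. Its normalised read count, in CPM (counts relative to the library total after edgeR's TMM scaling), was 993, 894 and 950 in AT2CTRL replicates 1, 2 and 3 and 1048, 1278 and 1244 in AT2CAB replicates 1, 2 and 3. AT2CAB replicate 1 was the nearest to the AT2CTRL range. The level was 1.26-fold that of AT2CTRL (95% interval 1.01 to 1.57; log2 fold change 0.33, standard error 0.14), and it did not pass the test across genes (edgeR adjusted p = 0.500, unadjusted p = 0.044). An exact permutation test over the 3 against 3 libraries gave a two-sided p of 0.1, the smallest this design allows. Groups that do not overlap always give this value, and Foxa2 and Cebpa had it too. In the 4 libraries without Y-linked reads the log2 fold change was 0.37. In the mm10 coordinates of the table, Nkx2-1 spans bases 56531935 to 56536908 of chromosome 12, minus strand.

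Foxa2 and Cebpa were the members whose AT2CAB libraries all lay below the AT2CTRL libraries. Foxa2 had 119.5, 115.5 and 106.4 CPM in AT2CTRL and 91.9, 92.5 and 95.9 CPM in AT2CAB. Replicates agreed closely, and the biological coefficient of variation of 0.118 was at the 1.7 percentile of all tested genes. The log2 fold change was -0.28 (standard error 0.10, 95% interval -0.52 to -0.048, edgeR adjusted p = 0.436), and it was -0.23 in the 4 libraries without Y-linked reads. By TPM the separation was slight, with a lowest AT2CTRL value of 96.9 and a highest AT2CAB value of 96.7.

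Cebpa had 1068, 1180 and 1089 CPM in AT2CTRL and 1032, 887 and 859 CPM in AT2CAB. The highest AT2CAB library was just below the lowest AT2CTRL library, and by TPM the groups overlapped (792 to 972 against 778 to 896). The log2 fold change was -0.26 (standard error 0.14, 95% interval -0.58 to 0.050, edgeR adjusted p = 0.587), and it was -0.21 in the 4 libraries without Y-linked reads.

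In all, the groups did not overlap in 3 of the 10 genes by TMM-scaled CPM, against 17.1% of all tested genes (7% higher and 10.1% lower in AT2CAB). The number depended on the scaling and on the libraries, both compared after seeing the data. With library size only, as with upper-quartile scaling, Nkx2-1 was the 1 member left, against 16.5% and 15.6% of all tested genes, and by TPM Nkx2-1 and Foxa2 were left, against 17.4%. Among the 4 libraries without Y-linked reads, 2 against 2, the count was 8 of 10 (Nkx2-1 and Sox9 higher; Foxa1, Foxa2, Cebpa, Gata6, Klf5 and Elf3 lower), against 45.9% of all tested genes (19.5% higher and 26.5% lower). The panels of CPM by library show which libraries set each gene apart.

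**Figure D3:**
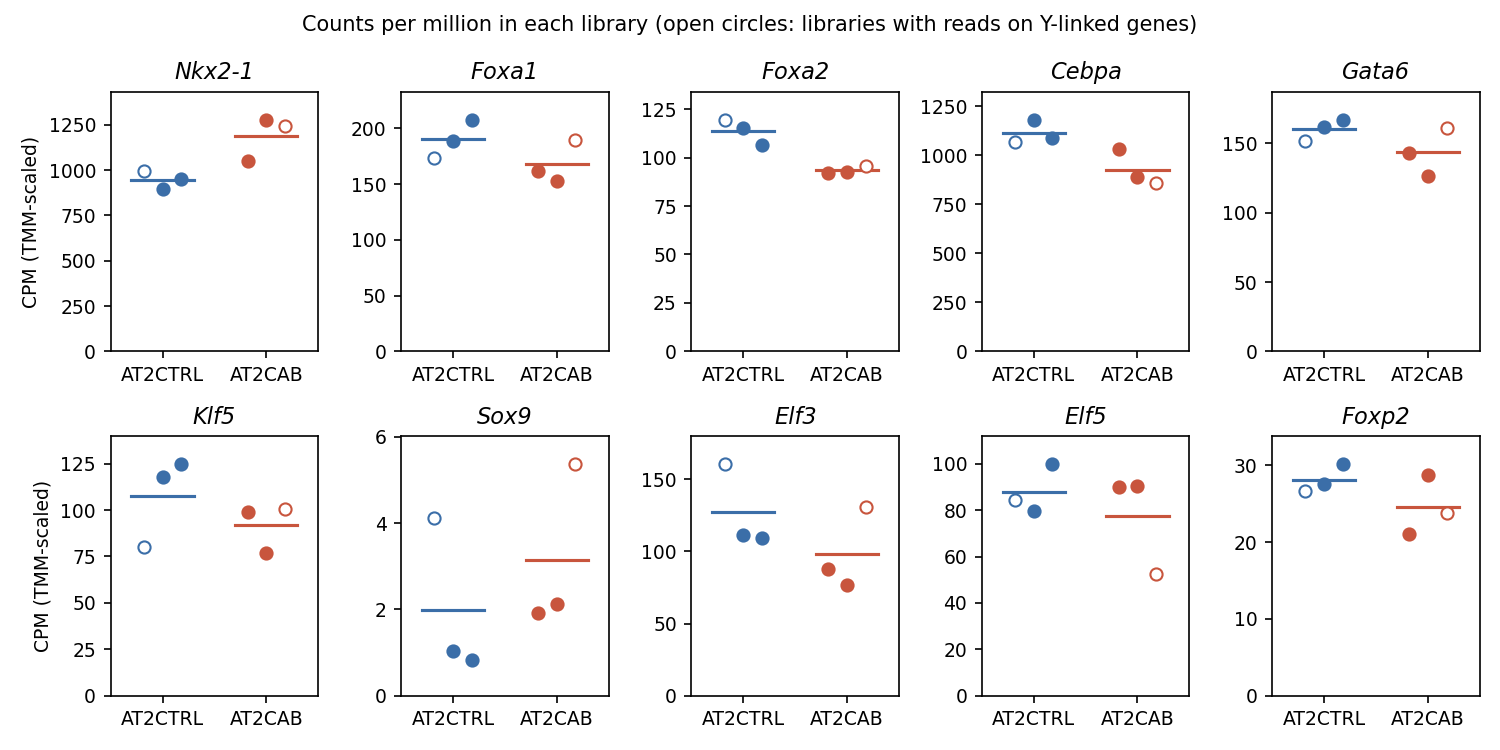
CPM after TMM scaling (vertical axes, each starting at 0) in AT2CTRL (blue) and AT2CAB (red) libraries, 1 panel per gene, with a bar at the group mean and replicates 1, 2 and 3 from left to right. Open circles are the 2 libraries with Y-linked reads, which are the 2 highest of the 6 for Sox9 and for Elf3.

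Foxa1, the partner of Foxa2 in lung endoderm, overlapped between groups, with 174, 189 and 208 CPM in AT2CTRL and 162, 153 and 190 CPM in AT2CAB. Its log2 fold change was -0.18 (standard error 0.13, edgeR adjusted p = 0.690). Gata6 had 152, 162 and 167 CPM in AT2CTRL and 143, 126 and 161 CPM in AT2CAB, with a log2 fold change of -0.16 (standard error 0.12, edgeR adjusted p = 0.708). AT2CAB replicate 3, a library with Y-linked reads, was the highest AT2CAB library for both and lay inside the AT2CTRL range. In the 4 libraries without Y-linked reads the log2 fold change was -0.30 for Foxa1 (edgeR adjusted p = 0.183) and -0.25 for Gata6 (edgeR adjusted p = 0.261). Exons of Gata6 overlap 1010001N08Rik, a gene of the other strand with at most 83 counts in a library. The counting left out reads that fell on both genes, so those in the shared part are missing from the Gata6 values.

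Klf5 had 80.3, 118 and 125 CPM in AT2CTRL and 98.7, 76.6 and 101 CPM in AT2CAB. The lowest AT2CTRL value was replicate 1, a library with Y-linked reads. Over all 6 libraries the log2 fold change was -0.23 (standard error 0.19, edgeR adjusted p = 0.720), and in the 4 libraries without Y-linked reads it was -0.44 (adjusted p = 0.161).

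Sox9, the distal progenitor factor, had the fewest reads of the 10, with 92, 24 and 22 counts in AT2CTRL and 42, 55 and 165 counts in AT2CAB. As CPM this was 4.12, 1.03 and 0.838 in AT2CTRL and 1.93, 2.13 and 5.37 in AT2CAB. Both libraries with Y-linked reads were above all of the other 4. The log2 fold change was 0.66 (standard error 0.69, edgeR adjusted p = 0.783), with a 95% interval of the fold from 0.53 to 4.72. Without those 2 libraries it was 1.15, with 2 libraries in each group (adjusted p = 0.322).

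Elf3, an ETS factor of epithelial differentiation, had 161, 111 and 110 CPM in AT2CTRL and 87.8, 76.5 and 131 CPM in AT2CAB. Here too the 2 libraries with Y-linked reads were the highest of the 6. The log2 fold change was -0.37 (standard error 0.23, edgeR adjusted p = 0.643), and without those libraries it was -0.40 (edgeR adjusted p = 0.106). With a covariate for the Y-linked reads it was -0.38, with an adjusted p of 0.069, the smallest that any of the 10 genes reached under any alternative. Sox9 and Elf3 were the 2 of 10 members with both Y-read libraries beyond the other 4 in the same direction, a pattern found in 35.4% of all tested genes (19.5% with the 2 libraries higher, as here). What those libraries share beyond the Y-linked reads was not tested.

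Elf5, an ETS factor of distal lung progenitors, differed from the rest in 1 library. It had 84.3, 79.7 and 99.9 CPM in AT2CTRL and 90.1, 90.3 and 52.5 CPM in AT2CAB. Replicates 1 and 2 of AT2CAB lay inside the AT2CTRL range and replicate 3 lay below all other libraries. The log2 fold change was -0.18 (standard error 0.21, edgeR adjusted p = 0.813) with all libraries and 0.074 without AT2CAB replicate 3, and it was 0.039 without both Y-read libraries. Foxp2, a forkhead repressor of the distal epithelium, had 26.6, 27.5 and 30.2 CPM in AT2CTRL and 21.1, 28.8 and 23.8 CPM in AT2CAB, with overlapping groups. Its log2 fold change was -0.19 (standard error 0.14, edgeR adjusted p = 0.690), and -0.17 in the 4 libraries without Y-linked reads.

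Ratios between members within a library do not depend on how libraries are scaled. Of the 45 ratios of TPM between pairs of the 10 genes, 6 did not overlap between groups, a share of 13.3% against 15.2% of the ratios between all pairs of tested genes above 0 in every library. All 6 had Nkx2-1 as the gene that was relatively higher in AT2CAB, so they were 6 of its 9 ratios. Of the ratios of Nkx2-1 to each of 16586 tested genes, 32.2% did not overlap with AT2CAB higher and 2.16% with AT2CAB lower. They were chosen after their values were seen and share the Nkx2-1 counts, so no test is given. The ratio of Nkx2-1 to Foxa2 was 6.87, 6.41 and 7.38 in AT2CTRL and 9.43, 11.4 and 10.7 in AT2CAB, 1.53 times as high in the mean. The ratio of Nkx2-1 to Cebpa was 0.856, 0.698 and 0.804 in AT2CTRL and 0.935, 1.33 and 1.33 in AT2CAB, again 1.53 times as high. In AT2CTRL cells Cebpa was thus the higher of the pair in 3 of 3 libraries, and in AT2CAB cells in 1 of 3. The means of the other 4 ratios, to Foxa1, Gata6, Elf3 and Foxp2, were 1.42, 1.42, 1.67 and 1.44 times as high. Ratios to Klf5, Sox9 and Elf5 overlapped.

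**Figure D4:**
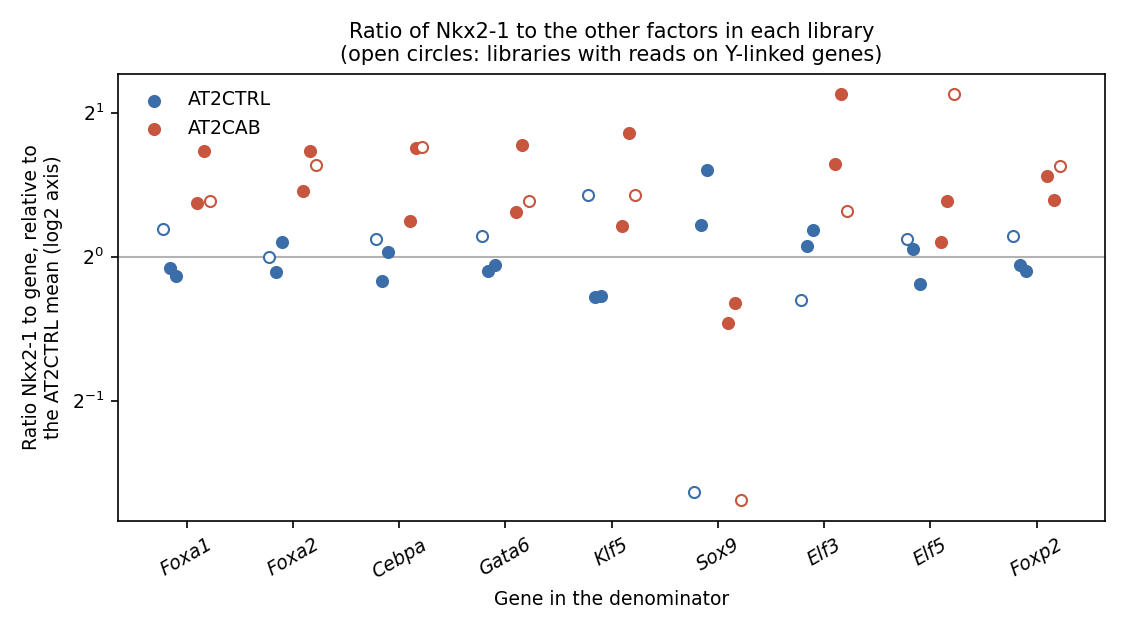
Ratio of Nkx2-1 to each other gene in each library (blue, AT2CTRL; red, AT2CAB; open circles, libraries with Y-linked reads), divided by the AT2CTRL mean of that ratio and drawn on a log2 axis. AT2CAB libraries lie above all AT2CTRL libraries for 6 of the 9 genes, and the 2 open circles at Sox9 lie far below the other libraries.

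Over the 6 libraries, which share the difference between groups and that between Y-read and other libraries, log2 CPM of Nkx2-1 and Cebpa had a Pearson r of -0.99, and that of Foxa1 and Gata6 an r of 0.95. The 3 tested genes most like Nkx2-1 by this measure were Tmc7, 6330409D20Rik and Shh, each with r = 0.99 (n = 6 libraries). Shh, which encodes the hedgehog ligand of the lung epithelium, had 41.6, 28.2 and 31.6 CPM in AT2CTRL and 46.7, 72.7 and 67.5 CPM in AT2CAB, with a log2 fold change of 0.88 (edgeR adjusted p = 0.202). An r over 0.95 with Nkx2-1 was found in 55 of 16722 genes. The gene of the table nearest to Nkx2-1, E030019B13Rik, lies 2515 bases away on the same strand and had a log2 fold change of the other sign. It had 501, 412 and 462 CPM in AT2CTRL and 359, 443 and 374 CPM in AT2CAB, at -0.22 (standard error 0.14).

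Relatives of the 10 factors, 36 genes of their families, were then compared. Of the 33 that were tested, 0 passed the test in either direction, 25 were above 0 and 8 below, with a median log2 fold change of 0.25. Of all 16723 tested genes, 8160 were above 0. With library size only, 30 of the 33 and 11531 of the 16723 were above 0. The most abundant were Cebpd, Cebpb, Klf6 and Klf4, with means of 257, 201, 151 and 130 TPM in AT2CTRL. Their log2 fold changes were -0.031, 0.0080, 0.16 and 0.35. Among the 33, Foxp3, the regulatory T-cell factor, had the highest value (log2 fold change 1.67, edgeR adjusted p = 0.412), from at most 36 counts in a library, and Nkx2-3 the next (1.46, from at most 14 counts). Ehf, an epithelial ETS factor closely related to Elf3 and Elf5, had the lowest at -0.47 (standard error 0.13, edgeR adjusted p = 0.307), followed by Sox4 at -0.19. Ehf passed with the covariate for Y-linked reads (-0.47, adjusted p = 0.048). In the marker lists, 12 of 12 endothelial and 12 of 12 mesenchymal genes also had log2 fold changes above 0, with medians of 0.58 and 0.52 and 0 that passed. So had 12 of 14 immune markers (median 0.72) and 12 of 15 AT1 markers (median 0.34). Airway markers had 5 of 10 above 0 and AT2 markers 2 of 15. The family list holds Sox17, Sox18 and Gata2, which endothelial cells express, at log2 fold changes of 0.55, 0.41 and 0.55. The part of such cells in these values was not tested.

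Among 30 other regulators of the lung epithelium, 29 were tested and 0 passed, with 13 above 0, 16 below and a median of -0.056, a sign that turned under other scalings, to 0.015 (upper-quartile) and 0.074 (library size only). The most abundant were the Iroquois factors Irx1, Irx2 and Irx3 and the FGF-responsive ETS factor Etv5, with 1189, 456, 380 and 742 TPM in AT2CTRL. Etv5 had the lowest log2 fold change of the list, -0.54 (standard error 0.23, edgeR adjusted p = 0.508), and Spdef the next at -0.44. Grhl1, a grainyhead factor of epithelial junctions, had the highest at 1.83 (standard error 0.35, edgeR adjusted p = 0.127), with a mean of 4.12 TPM in AT2CTRL and 16.6 TPM in AT2CAB. It passed with DESeq2 (adjusted p = 2.3e-05), with the covariate for Y-linked reads (adjusted p = 0.0033) and in the 4 libraries without them (adjusted p = 0.032). Mycn followed at 0.78.

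Genes known as targets of NKX2-1, FOXA1, FOXA2, C/EBPα or GATA6, or as dependent on them, gave 0 calls as well. These were 22 genes of surfactant, lamellar bodies, lipid synthesis, epithelial junctions and other epithelial products. Etv5 and Hopx were also in the list of other regulators. Of the 22, 7 were above 0 and 15 below, with a median log2 fold change of -0.10, which was 0.021 with library size only. The medians of all tested genes were -0.0096 and 0.12. The most abundant were Sftpc, Lyz2, Sftpb and Sftpa1. Sftpb and Sftpc, both bound by NKX2-1 at their promoters, had log2 fold changes of 0.013 (standard error 0.18) and -0.15 (standard error 0.22). Lyz2, the lysozyme of AT2 cells, had a mean of 56834 TPM in AT2CTRL and 29767 TPM in AT2CAB, with a log2 fold change of -1.09 (standard error 0.29, edgeR adjusted p = 0.273). Sftpd and Sftpa1, the collectins of surfactant, were at -0.72 and -0.61. At the other end were Hopx at 0.39 and Cldn18 at 0.34, a homeodomain protein and a claudin that AT1 cells also express. Aqp5 and Ager, AT1 markers in the same list, were at -0.53 and -0.019. With DESeq2, Lyz2 and Sftpd passed (adjusted p = 0.0029 and 0.0094), and with the covariate for Y-linked reads Lyz2 did (adjusted p = 0.046). In the 4 libraries without Y-linked reads the log2 fold change was -0.76 for Lyz2 and -0.48 for Sftpd, and neither passed. The plot of the lists sets the 10 factors beside these genes.

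**Figure D5:**
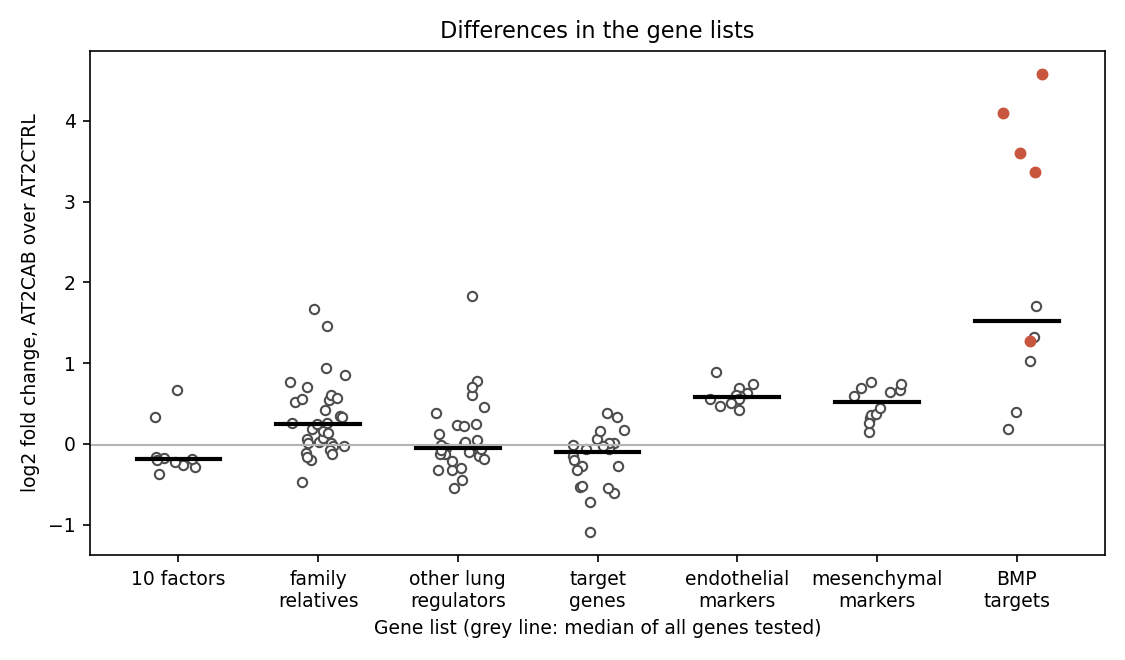
log2 fold change of AT2CAB over AT2CTRL (vertical axis) for each tested gene of 7 lists, with a black bar at the list median and a grey line at the median of all tested genes (-0.0096). Red points passed an adjusted p under 0.05 in edgeR and are found here among the 10 BMP targets alone, where 5 passed and the median was 1.52.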

How the data were processed

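RNA of sorted AT2CTRL and AT2CAB cells was sequenced as paired reads, with 3 mice in each group. Per the methods and file headers, the authors trimmed reads, aligned them to mm10 with Hisat2, removed duplicates and counted them on exons with featureCounts 1.5.3, without strand and leaving out reads on overlapping genes. The deposited values are raw counts for 24421 genes. Even numbers made up 56.9% to 60.8% of the counts from 1 to 20, and the header holds no option for read pairs. The methods speak of fragments, so whether mates were counted separately is not settled. Counting them separately would overstate the precision of low counts.

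The main test was the quasi-likelihood test of edgeR 4.0.16 (R 4.3.3) on these counts, after TMM scaling and filterByExpr at a minimum count of 10. P-values were adjusted by Benjamini-Hochberg over all tested genes (threshold 0.05), and the script was tested on simulated data. The paper's methods name DESeq2. DESeq2 1.42.0, limma-voom (limma 3.58.1), other scalings and filters, a replicate block, covariates and subsets of libraries were alternatives. TPM used the exon length in the table. Correlations used log2 CPM with a prior count of 2. The 10 members and all lists were chosen with earlier results of these data known. Of the lists of relatives, other regulators and targets, the text names the 4 most abundant genes, the 2 with the highest and the 2 with the lowest log2 fold change, and any that passed. Sox17, Sox18, Gata2, Aqp5, Ager, Tppp3 and Cyp2f2 were named after their values were seen.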

Additional observations from a re-analysis of the deposited data

How the results depend on the processing

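None of the 10 factors passed the threshold under any of the 18 alternatives, and 9 of the 10 kept their direction in every one. Elf5 was the exception, at 0.039 in the 4 libraries without Y-linked reads, and when single libraries were left out its log2 fold change ran from -0.29 to 0.074, the highest without AT2CAB replicate 3. In the same runs Nkx2-1 ran from 0.29 to 0.44, Foxa2 from -0.33 to -0.25, Cebpa from -0.32 to -0.18, Foxa1 from -0.24 to -0.10 and Gata6 from -0.21 to -0.064. Klf5 ran from -0.41 (without AT2CTRL replicate 1) to -0.10 (without AT2CAB replicate 2), Elf3 from -0.59 (without AT2CAB replicate 3) to -0.17 (without AT2CTRL replicate 1) and Foxp2 from -0.31 (without AT2CAB replicate 2) to -0.068 (without AT2CAB replicate 1). Sox9 ran from 0.083 without AT2CAB replicate 3 to 1.75 without AT2CTRL replicate 1. Libraries with the same replicate number came from different mice, and the number was not used in the main test. The deviations of same-numbered libraries from their group means had correlations over genes of -0.24, 0.20 and -0.53. With 3 libraries in a group these values cannot show whether the numbers pair the libraries. With the number as a replicate block Nkx2-1 stood at 0.33 (edgeR adjusted p = 0.797) and 41 of all tested genes passed, against 42 without it. With library size only, the median of the 10 factors moved to -0.060 and that of all tested genes to 0.12. The number of factors whose groups do not overlap, compared after seeing the data, was 3 with TMM, against 17.1% of all tested genes. It was 1 with upper-quartile scaling (15.6% of all tested genes), 1 with library size only (16.5%) and 2 by TPM (17.4%). In the 4 libraries without Y-linked reads it was 8, where 45.9% of all tested genes did not overlap.

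In the lists, where edgeR called 0, DESeq2 called 1 of the other lung regulators and 2 target genes. The covariate for Y-linked reads gave 1 call each in the family relatives, the other lung regulators and the target genes, and the 4 libraries without Y-linked reads gave 1 in the other lung regulators. Over all genes the 42 calls became 286 with DESeq2, 423 with the covariate, 113 in the 4 libraries, 67 with no filter, 28 with limma-voom and 6 to 63 with single libraries left out, the fewest without AT2CTRL replicate 2 and the most without AT2CAB replicate 1. The causes were not tested. Sox9 had 22 to 165 counts in a library, and with all counts halved its log2 fold change was 0.69.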
